A study of Homo sapiens with 6 samples.

Results

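HSP90 is the ATP-dependent chaperone that completes the folding of kinases, steroid receptors and other signalling proteins in the cytosol. The genes described here are the 2 that encode the cytosolic chaperone, HSP90AA1 and HSP90AB1, and 8 that encode its co-chaperones, AHSA1, STIP1, CDC37, PTGES3, FKBP4, FKBP5, PPID and CHORDC1. They were chosen by gene symbol, and all 10 were found among the 30270 genes of the count table and passed the filter on low counts, as did 23952 genes in all. The cells were HEK 293T, a transformed human embryonic kidney line, and total RNA was sequenced after ribosomal RNA had been reduced. One group was wild type (WT, 3 libraries) and the other carried the label of a TENT3A/B double knockout (ΔTUT4/7, 3 libraries), in which both terminal uridylyltransferases TUT4 (TENT3A) and TUT7 (TENT3B) are meant to be deleted. Both groups were untreated and were grown in the same serum-containing DMEM. The knockout line had been made earlier in another laboratory, and whether it was derived from 1 clone is not given in the sources used here. The 3 libraries of a group were labelled as biological replicates of 1 line, so the tests measure the spread among cultures of that line and cannot tell the genotype apart from other differences between the lines.

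In the HSP90 cycle, STIP1 (also called HOP) bridges HSP70 and HSP90 and hands over the client, CDC37 brings in protein kinases, AHSA1 stimulates the ATPase, and PTGES3 (p23) holds the closed, ATP-bound state. FKBP4 (FKBP52), FKBP5 (FKBP51) and PPID (cyclophilin 40) are peptidyl-prolyl isomerases that dock on the end of HSP90 through tetratricopeptide repeats and take part in steroid receptor complexes. CHORDC1 is a CHORD-domain co-chaperone. HSP90AA1 is known as the stress-inducible cytosolic form and HSP90AB1 as the constitutive one. FKBP5 is also known as a gene that glucocorticoid receptors induce.

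Levels are given as counts per 1000000 counts of TMM-scaled library size (CPM), and library totals ran from 18757228 to 33148937 estimated counts. Fold changes are those of the libraries labelled ΔTUT4/7 over WT, with standard errors (SE) from the quasi-likelihood fit, and a gene was called at a false discovery rate (FDR) under 0.05 over all tested genes. The targeted genes did not both follow the label. TUT7 fell from 62.6 ± 2.17 to 26.3 ± 1.04 CPM (SD, n = 3), whereas TUT4 rose from 211 ± 5.08 to 906 ± 21.4 CPM, and both passed the FDR. Since the table sums all exons of a gene, including any outside a deletion, these values do not show whether a functional protein could be made, and every direction below rests on the label. The markers checked for the line differed between the groups. VIM rose from 496 to 1250 CPM, and the neurofilament gene NEFL fell from 352 to 105.4 CPM. NEFM, the other neurofilament gene, had 969 CPM in WT but 0, 0 and 1 counts in the libraries labelled ΔTUT4/7. The kidney-lineage genes PAX2 (2.15 and 1.45 CPM) and LHX1 (3.91 and 1.96 CPM) were low in both groups and fell, and the epithelial gene EPCAM had 12 to 42 counts in a WT library and 0 in each labelled one. The part of such differences between the lines in the results below was not tested. The hepatocyte gene ALB and the endothelial gene PECAM1 had between 0 and 7 counts in any library.

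All 10 members rose in the libraries labelled ΔTUT4/7, 7 of them at least 2-fold. Their adjusted p-values by edgeR's quasi-likelihood test lay between 2.12e-16 (HSP90AB1) and 0.000238 (CDC37). Across all tested genes 57.7% were called in either direction, 28.6% higher and 29% lower, and 5.9% were higher at 2-fold or more. Because the members are abundant, they were also set beside the 4067 genes with at least the mean count of the lowest member (1553 counts). Of these, 53.1% were called higher and 4.77% were higher at 2-fold or more, so the direction alone was common at this level of expression and the size of the change was not. The members were chosen with earlier results of these data known, so this comparison is a description and not an independent test. The median log2 fold change was 1.21 over the 10 members and -0.02 over all tested genes. The libraries of the groups did not overlap for any of the 10 members, against 62.7% of all tested genes. Together the members took 0.398% to 0.406% of the counts of a WT library and 0.892% to 0.900% of those of a library labelled ΔTUT4/7. In bulk RNA a change per cell and a change in the share of cells that express a gene cannot be told apart.

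**Figure D1:**
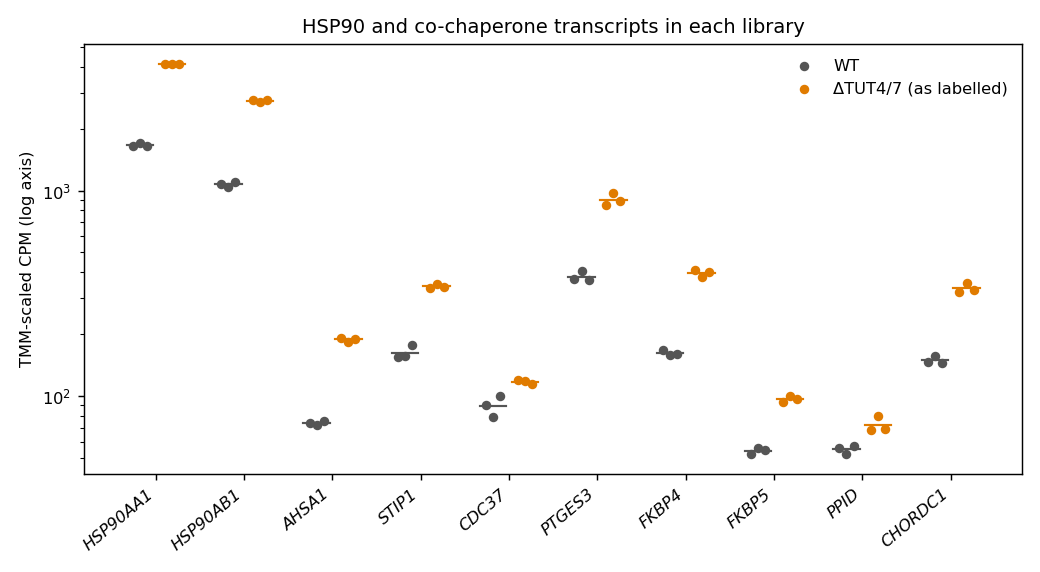
CPM of the 10 members (log axis) in each of the 3 WT libraries and the 3 libraries labelled ΔTUT4/7, with a line at each group mean. For every member the 3 labelled libraries lay above the 3 WT libraries, with a narrow gap for CDC37 (79.2 to 100.1 against 115 to 120.2 CPM) and a wide one for HSP90AA1 (1643 to 1699 against 4123 to 4155 CPM).

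The chaperones themselves were the most abundant members. HSP90AA1 (chromosome 14, 102080742 to 102139699, minus strand, hg38 as for all positions) had 1643, 1699 and 1647 CPM in WT replicates 1, 2 and 3, and 4141, 4155 and 4123 CPM in the libraries labelled ΔTUT4/7. The spread within either group was small beside the difference, which was 2.49-fold (log2 fold change 1.32 ± 0.04 SE). HSP90AB1 (chromosome 6, 44246166 to 44253888, plus strand) had 1081, 1044 and 1099 CPM in WT, and 2774, 2690 and 2770 CPM in the libraries labelled ΔTUT4/7. That is 2.55-fold (1.35 ± 0.04). Both paralogs thus rose by about the same factor, although only HSP90AA1 is known as the inducible form. These values are of RNA in the sequenced libraries. The study reported that HSP90 protein was unchanged by Western blot, and that RT-qPCR found a significant rise of HSP90AB1 but not of HSP90AA1. The ratio of HSP90AA1 to HSP90AB1 counts within a library does not depend on scaling. It was 1.55 in WT and 1.51 in the libraries labelled ΔTUT4/7 (geometric means), a log2 difference of -0.04 with overlapping groups (exact two-sided permutation test, p = 0.5, where 0.1 is the smallest value that 3 against 3 libraries allow).

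The HSP90 genes have many processed pseudogenes, and the counting model divides reads between near-identical copies. In the GENCODE 44 annotation, 6.41% of the 76-base windows (the read length) of the canonical HSP90AA1 transcript also occurred exactly in another gene, mostly HSP90AA2P, and 5.28% of those of HSP90AB1, mostly HSP90AB3P. Counts assigned to 5 HSP90AA1 pseudogenes came to 5.00% of the parent's counts in WT and 4.86% in the libraries labelled ΔTUT4/7. Those of 4 HSP90AB1 pseudogenes came to 10.1% in each group. The pseudogenes moved with their parents. HSP90AA2P rose from 71.5 ± 5.63 to 172 ± 2.82 CPM and HSP90AB3P, with 109, 98.8 and 97.8 CPM in WT, reached 263 ± 4.91 CPM, and HSP90AA3P, HSP90AA4P, HSP90AA6P and HSP90AB2P also passed the FDR, with log2 fold changes between 1.10 (HSP90AB2P) and 1.404 (HSP90AA4P). HSP90AB4P, at 1.06 CPM in WT, did not (0.06 ± 0.31). With the pseudogene counts added to the parents, the log2 fold changes were 1.31 for HSP90AA1 and 1.35 for HSP90AB1.

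AHSA1, the ATPase activator, followed HSP90 most closely. It (chromosome 14, 77457870 to 77469472, plus strand) had 73.5, 71.9 and 75.7 CPM in WT, and 192, 184 and 190 CPM in the libraries labelled ΔTUT4/7. The change was 2.56-fold (log2 1.36 ± 0.05), which differs from that of HSP90AB1 by less than its SE. No 76-base window of its canonical transcript occurred in another gene. The overlapping gene on the other strand, VIPAS39, changed by -0.29 ± 0.08 on the log2 scale.

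PTGES3, which encodes p23, was the most abundant co-chaperone. It (chromosome 12, 56663341 to 56688408, minus strand) had 372, 405 and 366 CPM in WT, and 849, 976 and 889 CPM in the libraries labelled ΔTUT4/7. Replicate 2 was the highest library of each group, and the groups lay far apart at 2.37-fold (log2 1.25 ± 0.05). Of its windows of read length, 7.30% occurred in other genes, mostly PTGES3P1. Its 4 pseudogenes held 18.1% of its own count in WT and 16.5% in the other group, and with them added the log2 fold change was 1.23.

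STIP1, the bridge to HSP70, rose by just over 2-fold. It (chromosome 11, 64185272 to 64204543, plus strand) had 155, 156 and 178 CPM in WT, and 336, 353 and 338 CPM in the libraries labelled ΔTUT4/7. WT replicate 3 was the highest of its group, and the change was 2.10-fold (log2 1.07 ± 0.05). This gene passed the FDR in every alternative fit, but lay under 2-fold with library-size scaling (0.95), upper-quartile scaling (0.97) and an offset for GC content and length (0.99).

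CDC37, the kinase co-chaperone, was with PPID the member that changed least. It (chromosome 19, 10391133 to 10420121, minus strand) had 89.9, 79.2 and 100.1 CPM in WT, and 120.2, 118 and 115 CPM in the libraries labelled ΔTUT4/7. The groups did not overlap, and the WT libraries spread more widely than the labelled ones. The change was 1.31-fold (log2 0.39 ± 0.07, adjusted p = 0.000238). It stayed called in all 15 fits that left out a library or changed the scaling, filter, tool or design, with adjusted p-values up to 0.00352. The overlapping gene PDE4A on the other strand changed by 0.51 ± 0.11.

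The isomerases split. FKBP4 (chromosome 12, 2794970 to 2805423, plus strand), which favours steroid receptor signalling, had 167, 158 and 159 CPM in WT, and 409.6, 378 and 400.1 CPM in the libraries labelled ΔTUT4/7. The groups were far apart, at 2.45-fold (log2 1.29 ± 0.05), or 1.30 with the counts of its 3 pseudogenes added. FKBP5 (chromosome 6, 35573585 to 35728583, minus strand), which acts against FKBP4 in these complexes, had 52.0, 55.7 and 54.4 CPM in WT, and 93.3, 100.3 and 96.7 CPM in the libraries labelled ΔTUT4/7. It rose by 1.79-fold (log2 0.84 ± 0.05), with a gap between the groups many times their spread, and no alternative brought it to 2-fold. PPID (chromosome 4, 158709127 to 158723396, minus strand) had 56.1, 52.5 and 57.1 CPM in WT, and 68.6, 80.1 and 69.0 CPM in the libraries labelled ΔTUT4/7. Its change was 1.31-fold (log2 0.39 ± 0.06), and replicate 2 of the labelled libraries stood above the other two.

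The PPID count is the least certain of the 10. Of the 76-base windows of its canonical transcript, 35.6% occurred in ETFDH, which overlaps it on the other strand, and whether the counting used strand is not given in the sources used here. ETFDH itself fell (62.1 and 35.2 CPM, log2 -0.82 ± 0.06). The windows are those of single reads, whereas the study describes a paired-end run. Read pairs that lie wholly within the shared stretch cannot be told apart without strand, and their part in the PPID value was not tested.

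CHORDC1 (chromosome 11, 90200429 to 90223077, minus strand) had 147, 156 and 145 CPM in WT, and 321, 354 and 326 CPM in the libraries labelled ΔTUT4/7. All 3 labelled libraries were at least 2-fold above every WT library, and the fitted change was 2.24-fold (log2 1.16 ± 0.05). Its 3 pseudogenes held 5.81% of its count in WT and 5.57% in the other group.

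To see whether the members share a sequence feature, the windows around RefSeq start sites (250 bases before to 50 after, GRCh38) were searched for the 3-unit heat shock element on both strands (GAA, any 2 bases, TTC, any 2 bases, GAA), the motif that the heat shock factor HSF1 is known to bind. Windows were found for 9 members, 15 in all. HSP90AA1, HSP90AB1 and CHORDC1 each had 1 window with a match, against 0.49% of 35116 windows and 0.608% of 27305 genes in the table. The feature was not particular to the members (33.3% of 9). Of the heat shock factors and genes listed below, 4 of 13 had a match (30.8%), and of the other co-chaperones 0 of 19. AHSA1, STIP1, CDC37, PTGES3, FKBP5 and PPID had none, which says only that these letters are not in the windows searched. The promoter stretches with matches are printed because these 3 genes were all at least 2-fold higher; capitals mark the matched bases, and bases annotated as exon were left out.
HSP90AA1 (chr14:102087045-102087172, minus strand, inside an intron of the longer transcript): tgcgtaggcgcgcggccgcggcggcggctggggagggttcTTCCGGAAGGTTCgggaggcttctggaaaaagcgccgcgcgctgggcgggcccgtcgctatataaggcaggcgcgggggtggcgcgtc
HSP90AB1 (chr6:44247738-44247865, plus strand, in an intron of the longer transcript): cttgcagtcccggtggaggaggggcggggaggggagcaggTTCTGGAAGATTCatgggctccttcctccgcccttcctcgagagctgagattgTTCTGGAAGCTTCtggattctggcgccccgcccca
CHORDC1 (chr11:90223078-90223149, minus strand, upstream of the gene): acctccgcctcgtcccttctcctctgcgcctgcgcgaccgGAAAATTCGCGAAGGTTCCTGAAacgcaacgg

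The HSP90AA1 match began 88 bases before the start site at 102087044, a transcript start inside the annotated gene. HSP90AB1 held 2 matches, 165 and 112 bases before a start site at 44247943 inside the gene. CHORDC1 held 3 matches that overlap each other, the first 60 bases before its start site. PTGES3, AHSA1 and STIP1, with log2 fold changes of 1.25, 1.36 and 1.07, had no match in their windows. A match is a description of the letters and not of binding.

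Compared per kilobase of canonical transcript, HSP90AA1 was the highest member in WT (515 ± 9.68 CPM per kb, SD, n = 3), followed by HSP90AB1 (421 ± 11.0) and PTGES3 (201 ± 11.1). STIP1 (76.1 ± 5.95), CDC37 (55.5 ± 6.45) and AHSA1 (55.1 ± 1.44) came next. CHORDC1 (48.5 ± 1.92), FKBP4 (43.5 ± 1.30), PPID (30.2 ± 1.34) and FKBP5 (14.4 ± 0.495) were lowest, with no overlap among them. The WT libraries of CDC37 (48.96 to 61.87) overlapped those of both AHSA1 (53.76 to 56.63) and CHORDC1 (47.1 to 50.72). In the libraries labelled ΔTUT4/7 the order of the means was the same except for CDC37 (72.6 ± 1.73). By its mean CDC37 went from the fifth to the eighth place, although its WT place is uncertain because of the overlaps. It then lay below AHSA1 (141 ± 3.20), CHORDC1 (109 ± 5.65) and FKBP4 (107 ± 4.36), and the last 2 of these overlapped. These levels assume that the canonical transcript was the one expressed.

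The balance between the transcripts of each co-chaperone and those of the chaperone was measured within libraries. It is the co-chaperone's count in percent of the summed HSP90AA1 and HSP90AB1 counts, which needs no scaling. These are ratios of RNA, and the balance of the proteins was not measured. AHSA1 stood at 2.69% ± 0.07 (SD, n = 3) in WT and 2.74% ± 0.05 in the libraries labelled ΔTUT4/7, with overlapping groups. FKBP4 (5.90% ± 0.20 and 5.75% ± 0.21) and PTGES3 (13.9% ± 0.76 and 13.1% ± 1.02) overlapped too, so these 3 kept pace with HSP90 within the spread of the libraries. CDC37 fell behind, from 3.28% ± 0.38 to 1.71% ± 0.04, and so did PPID, from 2.02% ± 0.09 to 1.05% ± 0.10. FKBP5 went from 1.97% ± 0.06 to 1.41% ± 0.06. STIP1 (5.95% ± 0.45 and 4.97% ± 0.16) and CHORDC1 (5.44% ± 0.21 and 4.85% ± 0.28) were also lower without overlap, by less. On the log2 scale the differences were -0.94 for CDC37, -0.94 for PPID, -0.49 for FKBP5, -0.26 for STIP1 and -0.17 for CHORDC1. Each of these 5 had an exact two-sided permutation p of 0.1, the smallest that 3 against 3 libraries allow, and 0.18 after Benjamini-Hochberg adjustment over the 9 ratios computed, so none could reach 0.05. For AHSA1, PTGES3 and FKBP4 the differences were 0.02, -0.08 and -0.04, with exact p of 0.5, 0.4 and 0.6.

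**Figure D2:**
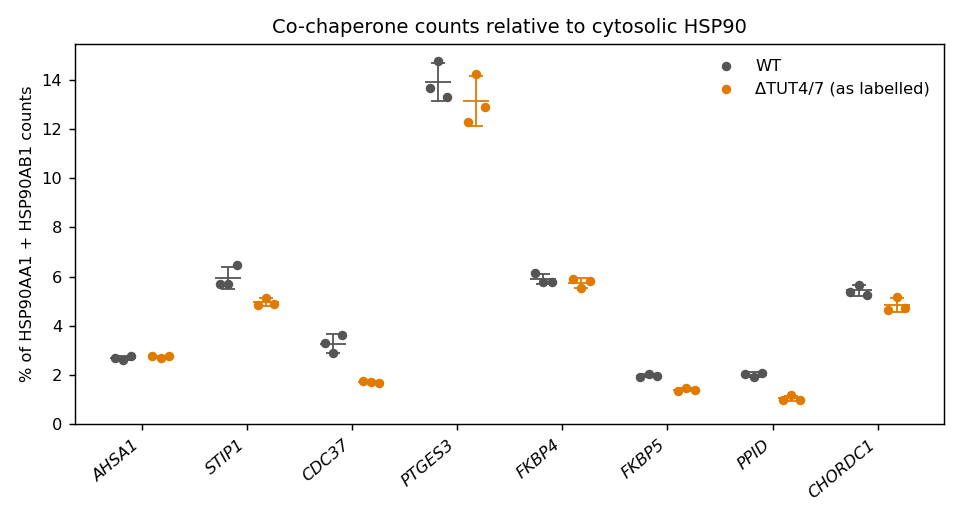
Estimated counts of the 8 co-chaperones in percent of the summed HSP90AA1 and HSP90AB1 counts of the same library, with group mean and SD (n = 3). AHSA1, PTGES3 and FKBP4 overlap between the groups, while CDC37 and PPID fall from 3.28% to 1.71% and from 2.02% to 1.05%.

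Neighbouring genes were examined as a check on changes shared by a stretch of chromosome. The median log2 fold change of other expressed genes (mean count of 50 or more) with a start within 5 Mb lay between -0.02 and 0.20 for 8 of the 10 members. It was 0.30 for the 84 neighbours of FKBP4 and -0.53 for the 16 neighbours of PPID, of which 11 were called lower and 1 higher. With the neighbours' median subtracted, the isomerases lay closer together, with FKBP4 at 0.99, FKBP5 at 0.80 and PPID at 0.92. HSP90AA1 stood at 1.13, HSP90AB1 at 1.30 and STIP1 at 0.89. What the neighbours contribute to these values was not tested.

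**Figure D3:**
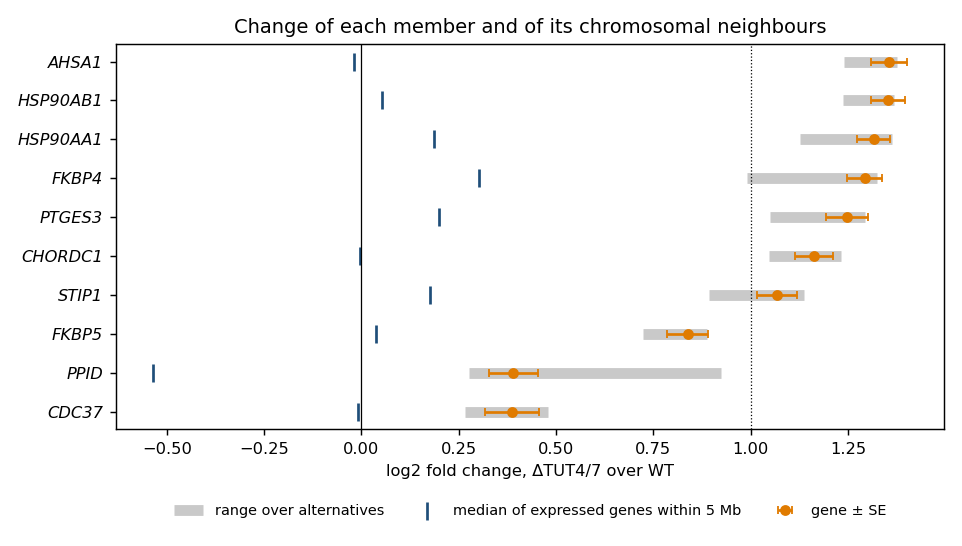
Log2 fold change of each member (point, ± SE), its range over all alternative analyses (grey bar) and the median log2 fold change of expressed genes within 5 Mb (blue tick). A dotted line marks 2-fold. The points of 7 members lie beyond it, PPID and CDC37 lie near 0.39, and the PPID neighbours sit at -0.53.

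The noncytosolic members of the family changed by smaller factors. HSP90B1, the endoplasmic reticulum form, had 693 ± 48.9 CPM in WT and 842 ± 9.38 CPM in the libraries labelled ΔTUT4/7, a log2 fold change of 0.28 ± 0.05 that became -0.01 with the median of its neighbours subtracted. TRAP1, the mitochondrial form, rose from 114 ± 6.29 to 193 ± 6.25 CPM (0.76 ± 0.05). These differences from the cytosolic forms were not tested.

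A further list held 32 other co-chaperones and HSP90-linked assembly factors, of which 30 could be tested. Of these, 15 rose, 9 fell and 6 did not pass the FDR, with a median log2 fold change of 0.24. Among all tested genes 28.6% were higher and 29% lower, and among the abundant genes described above 53.1% and 27.4%. The counts called in each direction were thus near those of abundant genes. At 2-fold or more, 3 of the 30 were higher and none lower, against 5.9% and 12.4% of all tested genes. Of the abundant genes, 4.77% were higher at 2-fold or more. TTC4, a tetratricopeptide protein that binds HSP90, rose from 42.9 ± 1.67 to 107 ± 1.30 CPM (1.32 ± 0.05). CACYBP, the calcyclin-binding partner of the ubiquitin ligase SIAH1, rose from 112 ± 0.288 to 263 ± 16.4 CPM (1.23 ± 0.05), and ITGB1BP2 (melusin), a CHORD protein of muscle, rose from the low level of 1.84 ± 0.171 CPM (1.31 ± 0.19). RUVBL1, an ATPase of the R2TP complex that works with HSP90 in complex assembly, rose by 0.96 ± 0.05. In the other direction, SUGT1, a CS-domain protein that binds HSP90, fell from 315 ± 14.2 to 199 ± 0.610 CPM (-0.66 ± 0.04), but with the median of its neighbours subtracted its value was 0.09. FNIP2 (-0.56 ± 0.06), TSC1 (-0.48 ± 0.05) and AHSA2P (-0.41 ± 0.05) fell as well. FNIP2 and TSC1 are known to slow the HSP90 ATPase. AHSA2P, a relative of AHSA1, is annotated as a transcribed unitary pseudogene, although it was counted in the list. AHSA1 itself moved the other way.

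Clients of HSP90 were listed to see whether their transcripts moved with the chaperone. All 30 were tested, and 15 rose, 9 fell and 6 did not pass, with a median of 0.13. PGR, the progesterone receptor, had 5 counts over the WT libraries and 1345 over those labelled ΔTUT4/7 (0.0685 ± 0.0318 and 18.8 ± 0.939 CPM). TERT, the catalytic subunit of telomerase, rose from 3.31 ± 0.444 to 8.68 ± 1.02 CPM (1.38 ± 0.15), and CHUK, a kinase of the NF-kappaB pathway, rose by 0.89 ± 0.05. The receptor kinases IGF1R (-0.87 ± 0.05) and MET (-0.82 ± 0.05), the kinase LATS1 (-0.74 ± 0.05) and the mineralocorticoid receptor NR3C2 (-0.58 ± 0.07) fell. The shares called higher and lower, 15 and 9 of 30, were near those of the abundant genes (53.1% and 27.4%), so these counts do not set the clients apart.

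Because FKBP5 is a known glucocorticoid target, its receptor and 9 other targets were set beside it. NR3C1, the glucocorticoid receptor, went from 122 ± 10.1 to 107 ± 1.72 CPM (-0.19 ± 0.05, adjusted p = 0.00579), a call that was lost with the GC and length offset (-0.05, adjusted p = 0.341). Of the 9 targets, 2 rose, 3 fell and 4 did not pass, a called share near the 57.7% of all tested genes. TSC22D3 fell from 101.7 ± 8.57 to 8.18 ± 0.328 CPM (-3.63 ± 0.08), and ZBTB16 (-0.70 ± 0.15) and KLF9 (-0.43 ± 0.05) fell too. PER1 rose by 0.68 ± 0.08, and MT2A rose from 0.309 ± 0.109 to 4.67 ± 0.461 CPM (3.93 ± 0.27). The targets thus ranged from -3.63 to 3.93, with a median of 0.06.

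The members were last placed beside the heat shock factors and textbook heat shock genes, a list of 15 of which 14 were tested. HSF1 rose from 34.4 ± 3.00 to 50.7 ± 3.70 CPM (0.56 ± 0.07), and HSF2 had 60.6 ± 4.15 and 60.0 ± 4.66 CPM (-0.01 ± 0.06, not called). Over the list 11 rose, none fell and 3 did not pass, with a median of 0.93, where 28.6% of all tested genes and 53.1% of the abundant ones were higher. HSPA1B (2.22 ± 0.05) and HSPH1 (2.01 ± 0.05) rose more than any of the 10 members. HSPA8 rose by 1.39 ± 0.12, with WT replicate 1 at 820 CPM below the other WT libraries (1099 and 1080). HSPA1A rose by 1.43 ± 0.22 from 1.75 CPM, but it shares nearly all of its sequence with HSPA1B and their division is uncertain. DNAJB1 had 101 and 98.5 CPM and was not called.

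**Figure D4:**
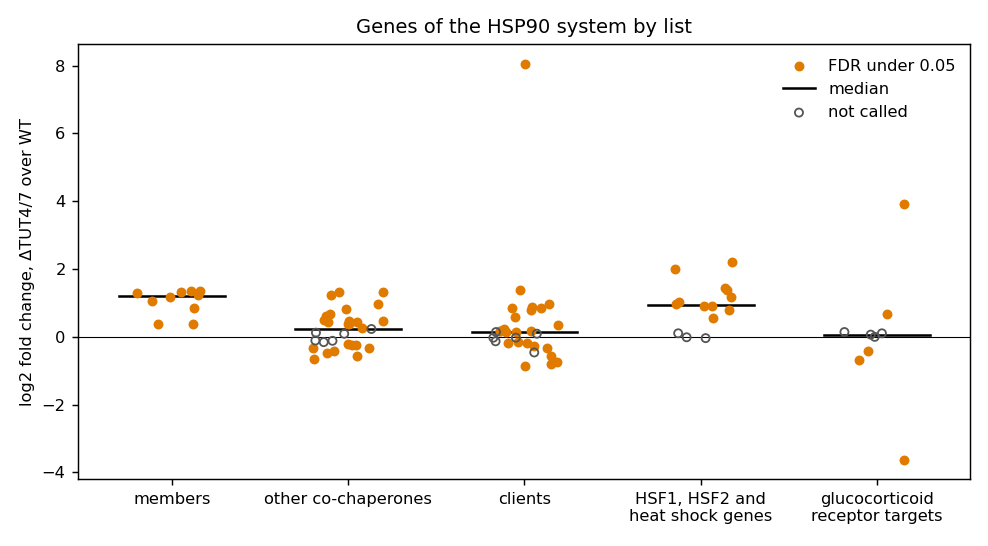
Log2 fold change of every tested gene in the 5 lists (filled, FDR under 0.05; open, not called), with the median as a line. The members all lie above 0 around a median of 1.21, other co-chaperones and clients spread to both sides of 0, and the point near 8 is PGR.

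To find which transcripts outside the member list behaved most like the chaperones, mean-centred log2 CPM profiles over the 6 libraries were compared by Euclidean distance. The candidates were 13486 genes that averaged at least 100 counts, with all members left out. A co-chaperone of the member list, such as AHSA1, could therefore lie nearer than the genes named here. Among these candidates, TRIP13, ZNF66 and VIM were nearest to HSP90AA1 (distances of 0.079, 0.080 and 0.083). TTC4, JAG2 and TOMM40 were the candidates nearest to HSP90AB1 (0.052, 0.074 and 0.076). The paralogs lay 0.11 from each other. With 6 libraries in 2 groups, such distances mostly reflect the size of the group difference.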

How the data were processed

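Total RNA of HEK 293T cells was sequenced in 3 WT libraries and 3 libraries labelled ΔTUT4/7. Per the submitters' processing notes, alignment used STAR 2.7.3a (hg38), and the authors deposited estimated counts per Ensembl gene from the expectation-maximisation model of Partek 10.0.22. A second deposited table holds the authors' own comparison and was not used. Estimated counts were rounded, and genes whose largest count was above 12 were tested, as in the study's methods. The 6318 genes left out held 0.096% of counts. TMM-scaled counts were fitted with edgeR 4.0.16 (glmQLFit, robust, glmQLFTest, group only) under R 4.3.3, and p-values were adjusted over every tested gene (Benjamini-Hochberg). SE values derive from the F statistic. The steps were tested on simulated data in which far fewer genes changed than were called here, and equally many in each direction. That test does not cover the scaling under changes as wide as those called here. Ratios were taken on unscaled counts. Transcript lengths and shared windows come from GENCODE release 44, which has the same start for 19878 of 30270 genes, and promoter windows from RefSeq (GRCh38). End coordinates are the deposited stop less 1 base.

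Members and lists were chosen with earlier results of these data known. Named genes are the members, HSP90B1, TRAP1, HSF1, HSF2, NR3C1, TUT4, TUT7, pseudogenes of HSP90 with a mean count of 10 or more, up to 4 called genes with the largest increase and decrease per list (mean count of 50 or more) and the nearest profiles. ETFDH, VIPAS39, PDE4A, DNAJB1 and the cell line markers were added after their values were seen. One gene that the rule names is not reported here. Alternatives were library-size, RLE and upper-quartile scaling, DESeq2 1.42.0, limma 3.58.1 on log2(CPM + 1), other count filters, a replicate block, each library left out, neighbouring genes subtracted and, chosen after seeing the data, a GC and length offset (available for all members and 76.9% of tested genes) and pseudogene counts added to parents.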

Additional observations from a re-analysis of the deposited data

How the results depend on the processing

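All 10 members were called higher in each of the 15 alternative fits. The number at 2-fold or more was 7, and 6 with library-size or upper-quartile scaling or the GC and length offset, where STIP1 dropped under 2-fold. Relative to TMM, the median over all genes shifted by -0.11 with library-size scaling and by -0.10 with upper-quartile scaling. The total of called genes, 13813, ran from 11106 (mean count of 50 or more) to 14248 (no filter).

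Over 54 named genes and their alternatives, 822 of 868 values kept direction and call, or, for 16 values with neighbouring genes subtracted, which have no test, moved by less than the spread between replicates. Of the others, 1 call was lost (NR3C1, GC and length offset), 36 moved with neighbouring genes subtracted and 9 changed sign. Those were HSP90AB4P (-0.057 with library-size scaling, -0.043 with upper-quartile scaling, and -0.20 without WT replicate 3 and -0.11 without ΔTUT4/7 replicate 1, in a range of -0.20 to 0.32 over libraries left out), HSF2 (0.038 without WT replicate 2 and 0.038 without ΔTUT4/7 replicate 3, in a range of -0.068 to 0.038, and 0.036 with the GC and length offset), and, with neighbours subtracted, HSP90B1 (-0.012) and SUGT1 (0.093). HSP90AB4P and HSF2 were called in none of these fits, nor in the main fit. With neighbours subtracted, a change of sign was counted only for genes called in the main fit. The cause of the sign changes was not tested.

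No pairing of the samples by replicate number was evident. Same-numbered libraries had correlations of their deviations from the group means of 0.04, 0.04 and -0.06, and differently numbered ones from -0.14 to 0.11. With 3 libraries a group, these values cannot show whether the cultures were paired. With the replicate block, 10 members were called, 7 at 2-fold or more, and the HSP90AA1 log2 fold change was 1.32.

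Counting depth does not limit the members, which had at least 1022 counts in any library. With 3 libraries a group, the exact permutation tests of the ratios cannot go below p = 0.1.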
